A study of Mus musculus with 9 samples.

Results

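The genes described here carry the insulin signal in white fat and move glucose into its cells: the insulin receptor Insr, the adaptors Irs1 and Irs2, the PI3-kinase subunit Pik3r1, the kinases Akt1 and Akt2, the transcription factor Foxo1 and the glucose transporters Slc2a1 (GLUT1) and Slc2a4 (GLUT4). They were chosen by name, with earlier results of these data known. A gene was measured by the probe sets of an exon array whose only gene symbol was that name, and 8 of the 9 genes had such probe sets, 116 in all, among 16299 gene symbols. Irs2 had none and is not analysed here. All 8 measured genes were among the 11342 genes that entered the tests.

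The study compared mutant alleles of Lmna, the gene of the A-type lamins, in mouse perigonadal white adipose tissue taken at 4 months of age. The G609G group (G609G/G609G, 3 arrays) is homozygous for an allele known to yield progerin, the shortened lamin A of progeria. The LCS group (LCS/LCS, 3 arrays) is homozygous for an allele known to yield lamin C without lamin A. The WT group (3 arrays) carries neither allele. No treatment was given, per the labels, and the sources used here give neither sex nor strain. The series design calls the samples biological replicates but does not say whether an array holds RNA of 1 animal or of a pool, so the p-values measure the spread between these arrays.

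Values are log2 signals on which 1 unit is a doubling. The deposited G609G arrays were dimmer than the others, with array medians of 6.52 to 6.63 against 7.19 to 7.26 in LCS arrays and 7.17 to 7.28 in WT arrays, and the median gene differed by -0.47 between G609G and WT arrays as deposited. Each array was therefore set relative to its median gene, and folds are given on that scale unless they are called deposited. The 2 scales differed by 0.46 for G609G against WT, by 0.50 for G609G against LCS and by only 0.03 for LCS against WT. Levels of different genes come from different probes and are not compared with each other. In tissue RNA, fewer cells of a type and less RNA per cell cannot be told apart.

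Insulin binds its receptor, which phosphorylates IRS adaptor proteins. These dock PI3-kinase, whose lipid product activates AKT kinases. In fat and muscle AKT2 sends GLUT4 vesicles to the cell surface, where glucose then enters, and AKT holds FoxO1 outside the nucleus, away from its target genes.

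The start regions of 3 members are printed to show the DNA from which those transcripts begin. These are Foxo1 and Slc2a1, which rose most in G609G fat, and Irs1, whose fall was the largest difference of a member in LCS fat. Each window runs from 250 bases before to 50 bases after the annotated start, 5′ to 3′ on the gene's strand, from RefSeq (GRCm38.p6). Foxo1 lies at chr3:52268087-52268386 (plus strand), Slc2a1 at chr4:119108495-119108794 (plus strand) and Irs1 at chr1:82291390-82291689 (minus strand). Capitals mark matches, on either strand, to the GC box GGGCGG, to the CCAAT box, to the TATA box TATAAAA, to the E-box CACGTG, to the other E-box CAGCTG, to a forkhead core TGTTTAC and to an insulin response core TGTTTTG.
Foxo1: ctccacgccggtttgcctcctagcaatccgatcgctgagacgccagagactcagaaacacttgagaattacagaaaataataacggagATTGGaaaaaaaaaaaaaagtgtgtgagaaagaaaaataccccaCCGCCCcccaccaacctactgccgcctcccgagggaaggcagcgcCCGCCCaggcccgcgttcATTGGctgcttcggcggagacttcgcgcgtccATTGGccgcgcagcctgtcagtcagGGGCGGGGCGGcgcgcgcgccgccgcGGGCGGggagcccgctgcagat
Slc2a1: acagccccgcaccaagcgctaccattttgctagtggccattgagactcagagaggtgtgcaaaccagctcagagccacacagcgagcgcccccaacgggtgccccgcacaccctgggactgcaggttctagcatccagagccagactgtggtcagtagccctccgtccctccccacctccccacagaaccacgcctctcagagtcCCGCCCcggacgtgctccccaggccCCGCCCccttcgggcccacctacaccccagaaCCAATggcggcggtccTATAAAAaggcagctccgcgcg
Irs1: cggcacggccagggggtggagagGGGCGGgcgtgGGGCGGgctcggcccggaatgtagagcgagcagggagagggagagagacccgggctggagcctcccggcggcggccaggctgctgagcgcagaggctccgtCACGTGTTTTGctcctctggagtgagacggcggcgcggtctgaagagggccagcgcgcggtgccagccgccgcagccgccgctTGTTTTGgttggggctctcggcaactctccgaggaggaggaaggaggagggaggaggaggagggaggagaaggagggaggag
The Foxo1 window held 5 GC boxes and 3 CCAAT boxes, with a pair of the GC boxes overlapping. The Slc2a1 window held 2 GC boxes, 1 CCAAT box and 1 TATA box. The Irs1 window held 2 GC boxes, 1 CACGTG and 2 TGTTTTG matches, and the E-box overlaps 1 of these. Among 32851 windows of the same length, a GC box was found in 35.7%, a CCAAT box in 37.4% and a TATA box in 5.48%. The CACGTG E-box was found in 7.15% and the other E-box in 16.3%, the forkhead core in 3.65% and the insulin response core in 6.28%. A match describes letters in this window and not a bound site.

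Fat cell genes were strongly expressed in all 9 arrays, but markers of other tissues differed between the groups. The mean log2 level of 7 white adipocyte markers was 12.37 to 12.45 in G609G arrays, 12.71 to 12.74 in LCS arrays and 12.60 to 12.68 in WT arrays. Of these 7, 1 was higher, 4 were lower and 2 did not pass in G609G against WT, with a median of -0.09. The counts of calls here are to be read beside all genes, of which 40.0% were called in LCS against WT and 70.7% in G609G against WT. As deposited 0 of the 7 were higher and 7 lower in G609G against WT, beside 71.3% of all genes lower. The deposited median was -0.55, beside -0.47 over all genes. Adipoq, the adipokine adiponectin, differed by -0.34, and Plin1, the coat protein of the lipid droplet, by -1.09. The mean of 9 skeletal muscle markers was 12.18 to 12.23 in G609G arrays, against 5.39 to 5.43 in LCS arrays and 5.01 to 5.20 in WT arrays. Of the 9, 5 were above the filter on dim genes only in G609G arrays, so that they entered the tests through that group. The other 4 were higher in G609G than in WT arrays, among them Tnnt3, a fast-muscle troponin, at 13.59 in G609G arrays, 5.46 in LCS arrays and 5.40 in WT arrays. In LCS arrays 2 of the 9 were higher than in WT arrays, Acta1 by 1.57 and Pvalb, which was dim there, by 0.41. The mean of 8 epididymis markers was 7.77 to 7.90 in G609G arrays, 11.87 to 11.92 in LCS arrays and 12.22 to 12.40 in WT arrays. Of these 8, 1 was higher and 7 were lower in G609G against WT, and 3 were higher, 3 lower and 2 not called in LCS against WT, with a median of 0.19. Macrophage markers (6 genes) averaged 8.52 to 8.69 in G609G arrays, 9.78 to 9.82 in LCS arrays and 9.44 to 9.48 in WT arrays. Progenitor and fibroblast markers (6 genes) averaged 9.42 to 9.47, 10.42 to 10.44 and 10.12 to 10.18 in the same order. Endothelial markers (6 genes) averaged 9.40 to 9.49 in G609G arrays, 9.24 to 9.27 in LCS arrays and 9.02 to 9.07 in WT arrays. The 2 erythroid markers tested averaged 6.10 to 6.25, 6.04 to 6.08 and 6.70 to 6.82 in the same order. The order of the groups depended on the scale. As deposited the endothelial ranges were 9.05 to 9.21 in G609G, 9.38 to 9.46 in LCS and 9.13 to 9.27 in WT arrays. The deposited erythroid ranges were 5.82 to 5.91, 6.23 to 6.24 and 6.86 to 6.93. The part of these tissues in the results below was not tested. Lmna itself, whose mutant alleles still give a transcript, did not pass the test in G609G against WT (-0.14, adjusted p = 0.151) or in LCS against WT (0.06, adjusted p = 0.647).

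**Figure D1:**
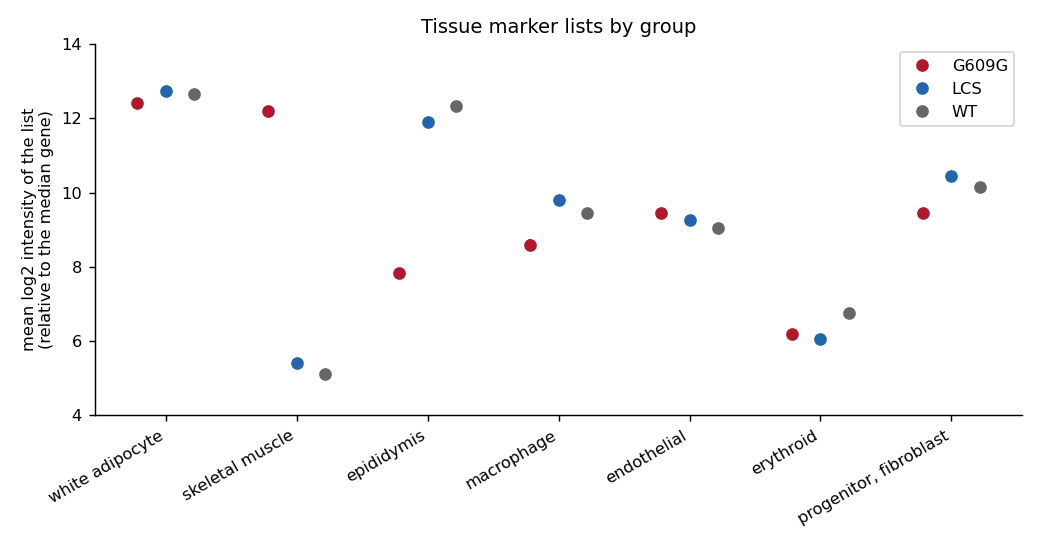
Mean log2 level, relative to the median gene, of each marker list in G609G, LCS and WT arrays, with each group's range over its 3 arrays drawn as a line that the point hides. Skeletal muscle markers stand at about 12.2 in G609G arrays, against 5.39 to 5.43 in LCS arrays and 5.01 to 5.20 in WT arrays.

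In G609G fat, 6 of the 8 measured genes were higher than in WT fat, Slc2a1, Foxo1 and Slc2a4 by more than 1 log2 unit, and 1 gene, Akt2, was lower. That is 87.5% of the members, beside 70.7% of all genes tested called in either direction (34.0% higher and 36.7% lower). The median log2 fold was 0.45 over the members and -0.01 over all genes. The groups did not overlap for 7 of 8 members, beside 71.6% of all genes. As deposited, 3 members were higher and 2 lower, with a median of -0.01 beside -0.47 over all genes. There 79.5% of all genes were called, 8.26% higher and 71.3% lower, and 79.2% did not overlap. Slc2a1, Foxo1 and Slc2a4 rose and Akt2 fell on both scales.

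In LCS fat the changes were smaller. Pik3r1, Akt1, Foxo1 and Slc2a4 were higher than in WT fat, Insr and Irs1 were lower, and the largest of these 6 differences was that of Irs1. This is 75% of the members, beside 40.0% of all genes (22.3% higher and 17.7% lower), and 6 of 8 members did not overlap, beside 57.8% of all genes. The median log2 fold was 0.08 over the members and 0.02 over all genes. As deposited 4 members were higher and 1 lower, beside 35.5% of all genes called (22.5% higher and 13.0% lower) and 52.2% that did not overlap. Both comparisons use the same WT arrays, so they are not independent of each other.

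Between the mutant groups, 6 members were higher and 1 lower in G609G than in LCS fat, beside 73.8% of all genes called (36.9% higher and 36.9% lower). The members' median was 0.60, beside 0.02 over all genes. As deposited 3 were higher and 3 lower, beside 79.9% of all genes called (9.38% higher and 70.5% lower) and 81.3% that did not overlap. The arrays of these groups did not overlap for 7 of 8 members, beside 75.3% of all genes.

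**Figure D2:**
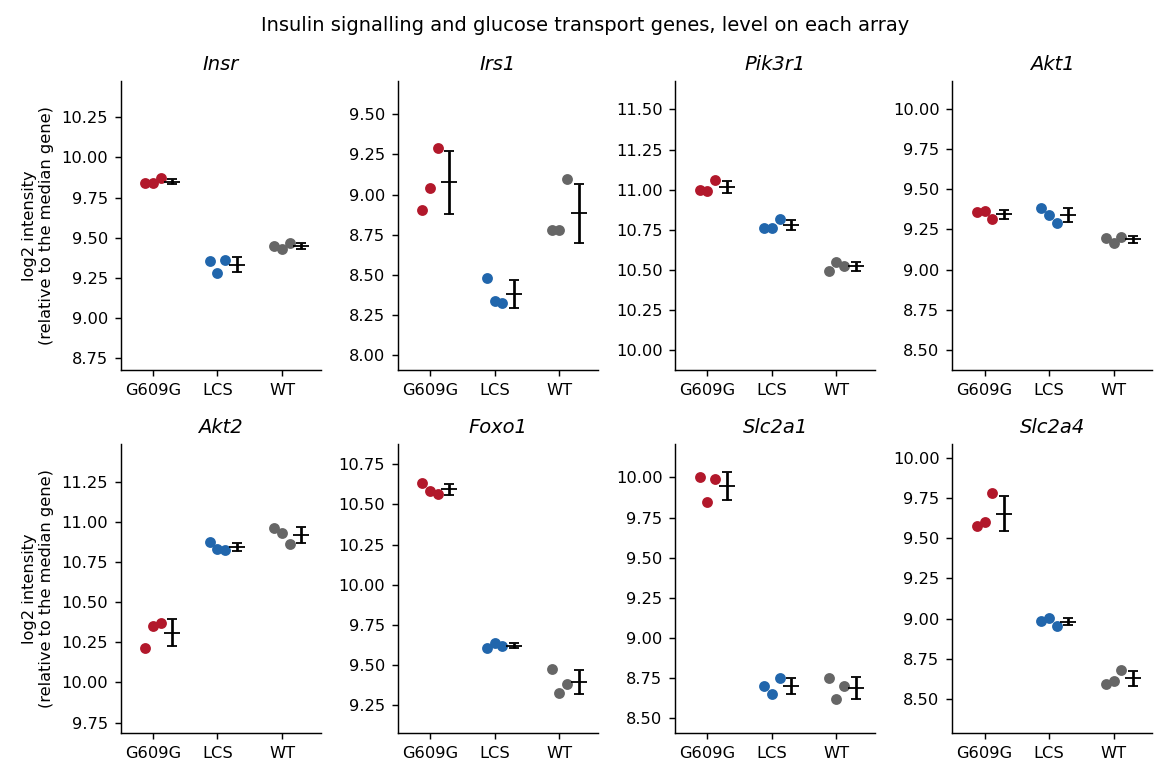
Log2 level of each of the 8 measured members in every array, relative to the median gene, with G609G, LCS and WT arrays from left to right and each group's mean ± SD (n = 3) beside its points. The vertical scales differ in position but span the same range. Foxo1, Slc2a1 and Slc2a4 lie higher, and Akt2 lower, in the 3 G609G arrays than in all 6 other arrays.

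Insr, which binds insulin at the cell surface, was highest in G609G fat and lowest in LCS fat. It measured 9.84, 9.84 and 9.87 in the G609G arrays, 9.35, 9.28 and 9.36 in the LCS arrays and 9.45, 9.43 and 9.46 in the WT arrays. No array of one group reached into another group. Standard errors of folds, here and below, are limma's moderated errors, for which the spread is estimated over all 9 arrays. The log2 fold of G609G over WT was 0.40 ± 0.035 (SE, n = 3 each, adjusted p = 7.5e-07), a 1.32-fold rise. On the deposited scale that difference was -0.06 and did not pass (adjusted p = 0.335). Over LCS the G609G difference was 0.52 (adjusted p = 6.47e-08), and as deposited 0.02 (adjusted p = 0.752). LCS fat was lower than WT fat by a small margin (-0.11, adjusted p = 0.0227). That last call was lost without LCS replicate 2 (adjusted p = 0.0639) and on the deposited scale (adjusted p = 0.301).

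Irs1, the adaptor that couples the receptor to PI3-kinase, was low in LCS fat. Its levels were 8.90, 9.04 and 9.29 in the G609G arrays, 8.48, 8.34 and 8.32 in the LCS arrays and 8.78, 8.78 and 9.09 in the WT arrays. All 3 LCS arrays lay below every other array, while the G609G and WT arrays overlapped. LCS over WT gave -0.50 ± 0.10 (SE, n = 3 each, adjusted p = 0.00208), a 1.42-fold lower level, and all 7 of its probe sets were lower, by 0.32 to 0.58. The deposited fold was -0.47 (adjusted p = 0.00732). G609G exceeded LCS by 0.69 (adjusted p = 6.69e-05), but as deposited by 0.20 (adjusted p = 0.147). G609G and WT differed by 0.19, which did not pass (adjusted p = 0.113). With the replicate number as a block the difference was 0.20 and passed (adjusted p = 0.00767). It passed too without WT replicate 3 (adjusted p = 0.00565) or without G609G replicate 1 (adjusted p = 0.0195), and the deposited value was -0.27 (adjusted p = 0.0531).

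Pik3r1 encodes p85α, the regulatory subunit that docks PI3-kinase onto IRS proteins. It measured 11.0, 10.99 and 11.06 in the G609G arrays, 10.76, 10.76 and 10.82 in the LCS arrays and 10.49, 10.55 and 10.53 in the WT arrays. The groups stood in that order with no overlap. G609G was 0.49 ± 0.032 above WT (adjusted p = 3.81e-08), LCS was 0.26 ± 0.032 above WT (adjusted p = 4.34e-05), and G609G was 0.24 above LCS (adjusted p = 2.51e-05). The order of the mutants depended on the scale. As deposited G609G differed from WT by 0.03 (adjusted p = 0.521) and stood below LCS (-0.26, adjusted p = 9.79e-05), while LCS stayed above WT by 0.29. With no filter on dim genes G609G and LCS did not pass either (adjusted p = 0.457).

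The AKT kinases parted from each other in G609G fat. Akt2, the isoform tied to glucose uptake in fat and muscle, measured 10.21, 10.35 and 10.37 in the G609G arrays, 10.87, 10.83 and 10.82 in the LCS arrays and 10.96, 10.93 and 10.86 in the WT arrays. All 3 G609G arrays were lower than the other 6, and the LCS and WT arrays overlapped. The log2 fold was -0.61 ± 0.043 against WT (adjusted p = 1.01e-07), a 1.52-fold lower level, and -0.53 against LCS (adjusted p = 2.9e-07). All 19 Akt2 probe sets had a lower mean in G609G than in WT arrays. As deposited the fall was deeper (-1.07, adjusted p = 1.23e-10). LCS and WT differed by -0.07, which did not pass (adjusted p = 0.198).

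Akt1, the more broadly used isoform, changed little. It measured 9.36, 9.36 and 9.31 in the G609G arrays, 9.38, 9.34 and 9.29 in the LCS arrays and 9.20, 9.16 and 9.20 in the WT arrays. Both mutants lay above WT, by 0.16 ± 0.038 in G609G (adjusted p = 0.0029) and by 0.15 ± 0.038 in LCS (adjusted p = 0.00733), and they differed from each other by 0.01 (adjusted p = 0.893). The direction in G609G rests on the scale, since the deposited value was lower than WT (-0.31, adjusted p = 0.00014) and lower than LCS (-0.49, adjusted p = 1.2e-06). Leaving out WT replicate 2 (adjusted p = 0.0583) or LCS replicate 1 (adjusted p = 0.0531) ended the LCS call. So did the plain mean of the probe sets (0.098, adjusted p = 0.0865) and setting adipocyte markers equal, chosen after seeing the data (0.077, adjusted p = 0.265).

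Foxo1, the factor that AKT keeps out of the nucleus, was much higher in G609G fat. It measured 10.63, 10.58 and 10.56 in the G609G arrays, 9.61, 9.64 and 9.62 in the LCS arrays and 9.47, 9.32 and 9.38 in the WT arrays. Every G609G array lay above every other array, and the LCS arrays lay a little above the WT arrays. G609G over WT was 1.20 ± 0.041 (adjusted p = 1.14e-10), a 2.30-fold rise that was still 0.74 as deposited (adjusted p = 5.2e-09). LCS over WT was 0.23 ± 0.041 (adjusted p = 0.000827), a 1.17-fold rise. G609G exceeded LCS by 0.97 (adjusted p = 6.6e-10).

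Slc2a1, which carries glucose into cells without the need of insulin, was raised in G609G fat and near the WT level in LCS fat. It measured 10.00, 9.85 and 9.99 in the G609G arrays, 8.70, 8.65 and 8.75 in the LCS arrays and 8.75, 8.62 and 8.70 in the WT arrays. The LCS and WT arrays overlapped and the G609G arrays stood apart. G609G over WT was 1.26 ± 0.053 (adjusted p = 8.49e-10), a 2.39-fold rise (0.79 as deposited, adjusted p = 8.74e-08), and G609G over LCS was 1.24 (adjusted p = 7.55e-10). All 9 Slc2a1 probe sets were higher in G609G than in WT arrays, by 1.04 to 1.38. The part of muscle tissue in this rise of Slc2a1 was not tested. LCS and WT differed by 0.01 ± 0.053 (adjusted p = 0.881).

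Slc2a4, the transporter that insulin brings to the cell surface, was raised in both mutants. It measured 9.58, 9.60 and 9.78 in the G609G arrays, 8.99, 9.0 and 8.96 in the LCS arrays and 8.60, 8.61 and 8.68 in the WT arrays. The groups did not overlap. G609G over WT was 1.03 ± 0.054 (adjusted p = 6.33e-09), a 2.04-fold rise, and 0.56 as deposited (adjusted p = 7.98e-06). LCS over WT was 0.35 ± 0.054 (adjusted p = 0.000246), a 1.28-fold rise. G609G stood above LCS by 0.67 (adjusted p = 2.65e-07), and by 0.18 as deposited (adjusted p = 0.0437). Muscle, whose markers were near 12.2 in the G609G arrays, is the other main tissue that uses GLUT4, and its part in this rise was not tested.

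**Figure D3:**
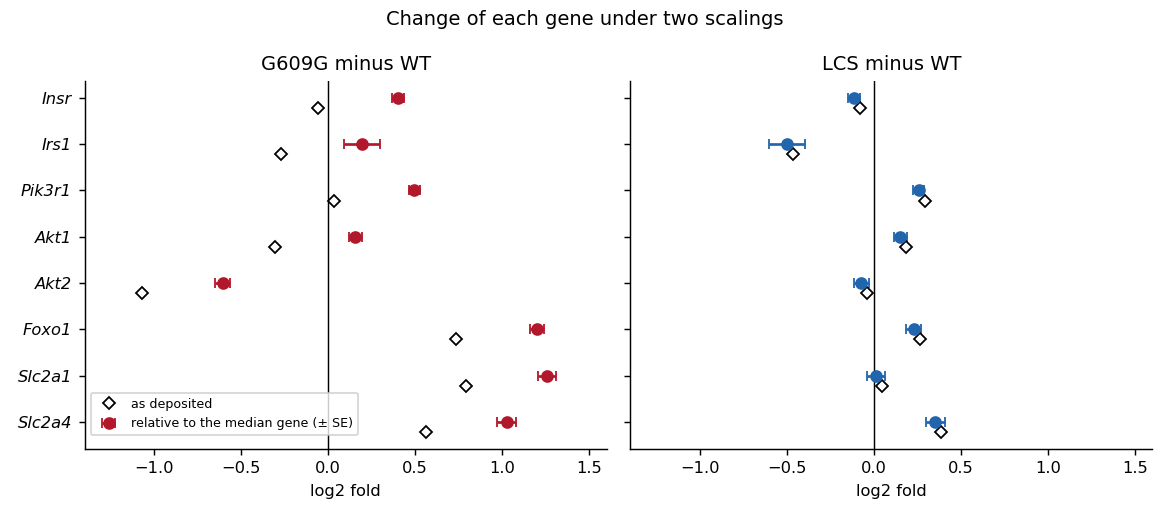
Log2 fold of the 8 measured members in G609G minus WT and LCS minus WT, relative to the median gene (filled, with bars of 1 standard error) and as deposited (open). The G609G values shift down by 0.46 on the deposited scale, where Insr, Irs1 and Akt1 change side, while Foxo1, Slc2a1, Slc2a4 and Akt2 keep theirs.

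A difference between 2 members on the same array is free of any shift of that array. It was taken for 4 pairs in 3 comparisons, 12 exact permutation tests whose smallest possible p with 3 arrays a group is 0.1. Akt1 minus Akt2 was -0.97 ± 0.10 in G609G fat, -1.5 ± 0.02 in LCS fat and -1.73 ± 0.06 in WT fat (SD, n = 3 each), a difference from WT of 0.76 for G609G and 0.23 for LCS. Foxo1 minus Akt2 was 0.28 ± 0.12 in G609G fat, -1.22 ± 0.04 in LCS fat and -1.52 ± 0.07 in WT fat, a difference of 1.81 for G609G and 0.30 for LCS. Both pairs separated every mutant array from every WT array. Slc2a1 minus Slc2a4 was 0.29 ± 0.11 in G609G fat, -0.28 ± 0.07 in LCS fat and 0.06 ± 0.08 in WT fat, so the mutants lay on opposite sides of WT. Insr minus Irs1 was 0.77 ± 0.18 in G609G fat, 0.95 ± 0.09 in LCS fat and 0.56 ± 0.17 in WT fat, and the G609G arrays overlapped the others (exact p = 0.3). All other pairs and comparisons reached an exact two-sided p = 0.1, which is 0.12 after Benjamini-Hochberg adjustment over the 12 tests. None can pass a threshold of 0.05 at this size.

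Single probe sets showed whether a change ran along the whole gene. Against the rest of its gene (limma diffSplice), 15 of 115 member probe sets passed in G609G against WT, or 13.0%, beside 15.6% of all 158136 probe sets tested. None passed in LCS against WT, beside 1.85% of all, while 8 had an unadjusted p under 0.05, and a splicing index with limma called 0 as well. In G609G against LCS 15 passed, beside 18.2% of all. Slc2a1, Irs1 and Pik3r1 had no divergent probe set in G609G against WT. Relative to the median gene, Pik3r1 rose at all 19 tested probe sets, by 0.23 to 0.64. These rises lie on both sides of the 0.46 between the scales, so their common direction rests on the scale. The deposited fold of the gene was 0.03. The positions of the probe sets within the genes were not used here.

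The lowest p was that of Akt2 probe set 4926906, which averaged 5.41 ± 0.67 in G609G arrays, 7.51 ± 0.17 in LCS arrays and 7.42 ± 0.22 in WT arrays. It lay 1.39 units further down than the rest of Akt2 in G609G against WT (adjusted p = 3.49e-15), and by 1.53 units in G609G against LCS (adjusted p = 1.64e-17). Akt1 probe set 4857592 was lower in G609G arrays, at 4.90 ± 0.17, than in LCS arrays, at 5.97 ± 0.10, or WT arrays, at 5.97 ± 0.42, although Akt1 as a whole was slightly higher in G609G than in WT (relative fold -1.21, adjusted p = 3.08e-12). Both probe sets are dim in G609G arrays, near the filter of 5.01. Foxo1 probe set 5220900 stood at 9.38 ± 0.23 in G609G arrays, 9.06 ± 0.13 in LCS arrays and 9.10 ± 0.08 in WT arrays, well short of the gene's rise (relative fold -0.99, adjusted p = 1.06e-07). Insr probe set 4967900 averaged 6.92 ± 0.64 in G609G arrays and 7.49 ± 0.06 in LCS arrays (relative fold -1.06, adjusted p = 2.43e-09), with G609G replicate 2 at 6.19 and the others at 7.39 and 7.19. A further probe set, chosen after its values were seen, was Slc2a4 5506361, at 8.15 ± 0.33 in G609G arrays, 8.11 ± 0.15 in LCS arrays and 8.20 ± 0.09 in WT arrays. It differed by -0.05 in G609G against WT where the other 13 probe sets of Slc2a4 had positive folds of up to 1.21. In LCS against WT the lowest p was that of Slc2a4 probe set 4979569, at 8.46 ± 0.09 in LCS arrays and 7.66 ± 0.44 in WT arrays (adjusted p = 0.136). Without the divergent probe sets, a setting chosen after seeing the data, the log2 fold of G609G minus WT was 1.06 for Foxo1 and -0.58 for Akt2. Of the 6 Foxo1 probe sets, 3 were called above and 2 below the rest of the gene in G609G against WT. The Foxo1 value of 1.06 is therefore that of the single probe set left, 4987758. Relative to the median gene, all 6 Foxo1 probe sets were higher in G609G than in WT arrays, by 0.28 to 1.81. The rises of 5220900 (0.28) and 5081625 (0.38) were smaller than the 0.46 between this scale and the deposited one, so their direction rests on the scale.

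**Figure D4:**
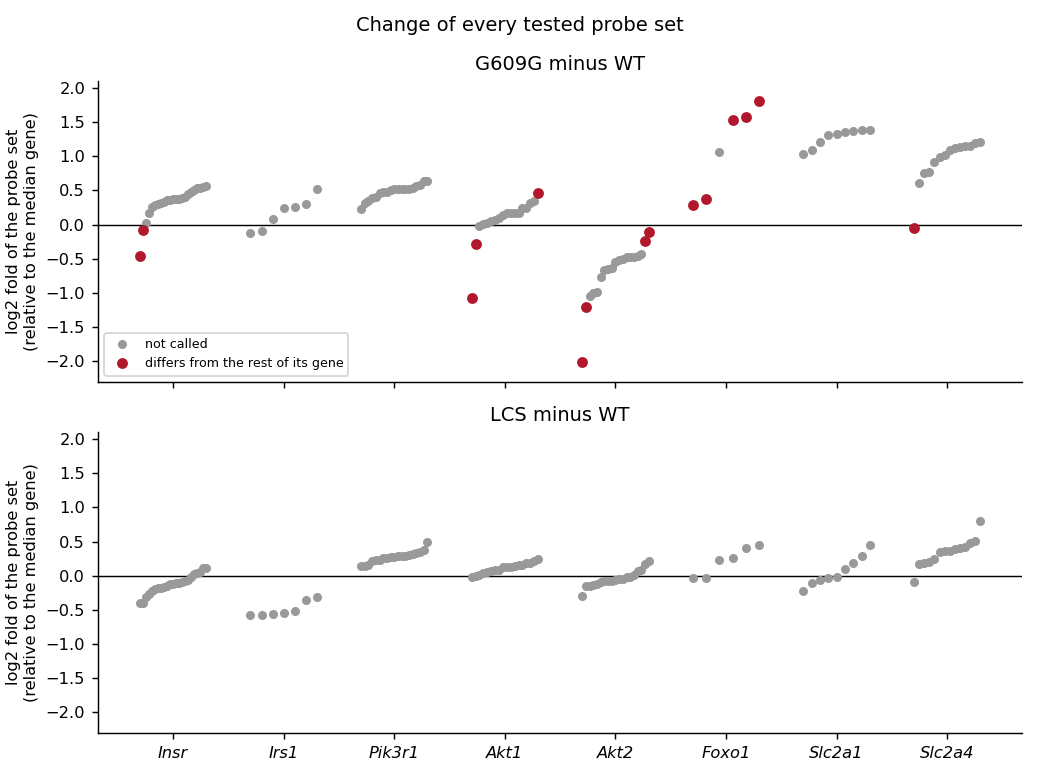
Log2 fold of each tested member probe set in G609G minus WT and LCS minus WT, relative to the median gene, sorted by fold within a gene and not by position. Red points differ from the rest of their gene. Slc2a1 probe sets lie in a narrow band of 1.04 to 1.38 in G609G against WT, while those of Akt2 run down to -2.01 and those of Foxo1 run over 0.28 to 1.81.

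The rest of the pathway was read from lists by role, which include the members. The share of a list called in G609G against WT is to be read beside the 70.7% of all genes called (34.0% higher, 36.7% lower, and 71.3% lower as deposited), and in LCS against WT beside 40.0%. The shares in G609G fat were 61.5% of adaptors, 66.7% of receptors, 72.7% of GLUT4 traffic genes, 73.7% of inhibitors, 75% of glycogen genes, 76.5% of Slc2a4 regulators and 77.8% of glucose transporters, all within about 10 points of the background. They were 81.8% of PI3-kinase subunits, 86.7% of kinases, 95.5% of FoxO genes and 100% of lipogenic genes. In LCS fat they ran over 26.7% (kinases) to 66.7% (receptors and transporters). Among 3 receptors, Igf2r, which clears IGF-II and carries lysosomal enzymes, fell by 0.44 in G609G fat (adjusted p = 4.78e-06), and the IGF-I receptor Igf1r rose by 0.12 in LCS fat (adjusted p = 0.0395). The Igf1r call did not hold under 14 of 25 settings, among them the deposited values (adjusted p = 0.0533), quantile normalization (0.07, adjusted p = 0.133), adipocyte markers set equal (0.042, adjusted p = 0.567) and leaving out WT replicate 3 (adjusted p = 0.198). Among 13 adaptors, 5 rose and 3 fell in G609G against WT, against 1 and 10 as deposited. Irs3, an IRS protein of rodent fat, fell by 1.58 (6.11 in G609G arrays, 7.77 in LCS arrays and 7.68 in WT arrays), Dok5 fell by 0.76, and Sh2b2, an adaptor of the insulin receptor, rose by 1.44 (9.87 in G609G arrays, 8.50 in LCS arrays and 8.43 in WT arrays). In LCS fat 4 adaptors rose and 2 fell, Dok1 rising by 0.50 and Dok5 falling by 0.60 beside Irs1. Leaving out WT replicate 1 (adjusted p = 0.0651) or LCS replicate 3 (adjusted p = 0.0824), or quantile normalization (-0.45, adjusted p = 0.0978), ended the Dok5 call in LCS fat. Dok5 was above the filter on dim genes only in WT arrays and entered the tests through them. Of the other 12 adaptors, 5 rose and 2 fell in G609G fat, and 4 rose and 1 fell in LCS fat.

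PI3-kinase subunits mostly fell in G609G fat, 7 of 11, with 2 higher (0 higher and 10 lower as deposited). Pik3cb, a catalytic subunit, fell by 0.50, and Pik3cg, the catalytic subunit of immune cells, by 1.11. Macrophage markers were lower in the same arrays, and their part in the fall of Pik3cg was not tested. In LCS fat 3 subunits rose and 2 fell. Pik3cb and Pik3c2a each fell by 0.27 and Pik3c3 rose by 0.26, where the Pik3c2a call was lost without LCS replicate 1 (adjusted p = 0.066) and the Pik3c3 call without WT replicate 2 (adjusted p = 0.0741). Of 15 downstream kinases, 6 rose and 7 fell in G609G against WT (1 and 11 as deposited). Sgk1, a kinase related to AKT, rose by 1.62, and Prkci (atypical protein kinase C) and Mapkap1, a subunit of the complex that phosphorylates AKT, fell by 0.77 and 0.79. In LCS fat 4 rose and 0 fell, Rps6kb1 by 0.33, Sgk1 by 0.26, Rps6kb2 by 0.17, and Akt1. The Rps6kb2 call did not survive leaving out any single LCS or WT array (adjusted p = 0.0602 to 0.15).

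Among 19 inhibitors of the pathway, 8 rose and 6 fell in G609G against WT (4 and 10 as deposited), with a median of 0.15 beside -0.01 over all genes, and 5 rose and 4 fell in LCS against WT. Enpp1, a membrane enzyme that can bind and inhibit the insulin receptor, was lower than in WT fat in each mutant, with means of 9.61 ± 0.08 in G609G arrays, 9.66 ± 0.02 in LCS arrays and 11.81 ± 0.10 in WT arrays. Its log2 folds were -2.19 ± 0.050 in G609G (adjusted p = 2.82e-12) and -2.15 ± 0.050 in LCS (adjusted p = 1.91e-11), the LCS value being the largest in size among the pathway genes tested in LCS fat. Between the mutants it differed by -0.05 (adjusted p = 0.42), but as deposited G609G was below LCS (-0.54, adjusted p = 2.53e-07). Ddit4, an inhibitor of mTORC1 known as REDD1, rose by 3.10 in G609G and by 0.92 in LCS. Mstn (myostatin), a muscle factor, was at 9.13 in G609G arrays, against 3.60 in LCS arrays and 3.67 in WT arrays. It was above the filter of 5.09 only in G609G arrays and entered the test through them, and 7 of the 18 other inhibitors rose. Inpp5d, the phosphatase SHIP1 of blood cells, rose by 0.74 in LCS fat. Macrophage markers were also higher there, and their part in this rise was not tested.

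Most FoxO factors and genes known as their targets were higher in G609G fat relative to the median gene. Against WT 18 of 22 rose and 3 fell, with a median of 0.48, and as deposited 9 rose and 8 fell. Fbxo32 (atrogin-1), a ubiquitin ligase of muscle, rose by 4.06 (11.82 in G609G arrays, 7.66 in LCS arrays and 7.75 in WT arrays), Cdkn1a (p21), a cell cycle inhibitor, by 3.08, and Sesn1 (sestrin 1) by 2.69. Muscle markers rose in the same arrays, and the part of muscle in these rises was not tested. In LCS fat 6 rose and 3 fell, with a median of 0.05. Cdkn1a was higher there too, at 9.91 ± 0.03 in LCS arrays and 8.79 ± 0.07 in WT arrays (1.12, adjusted p = 2.61e-09). Pdk4, which blocks the entry of pyruvate into the citric acid cycle, rose by 0.55 and Bcl6 by 0.46.

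Of 9 glucose transporters, 3 rose and 4 fell in G609G against WT (2 and 6 as deposited), and 3 rose and 3 fell in LCS against WT. The fructose transporter Slc2a5 (GLUT5) was lower than in WT fat in each mutant, averaging 5.74 ± 0.15 in G609G arrays, 5.37 ± 0.16 in LCS arrays and 7.17 ± 0.07 in WT arrays (-1.43 and -1.79). Slc2a10 fell by 0.86 in LCS fat, whereas Slc2a12 (GLUT12) rose by 0.74. Of 22 genes of GLUT4 vesicle traffic, 12 were lower, 4 higher and 6 not called in G609G against WT, with a median of -0.31 (20 lower and 2 higher as deposited). Tusc5, a fat protein of GLUT4 recycling, fell by 2.29 (8.84 in G609G arrays, 11.45 in LCS arrays and 11.13 in WT arrays), Sort1 (sortilin) fell by 1.02, and Lrp1, a receptor carried in GLUT4 vesicles, rose by 0.99. In LCS fat 10 of 22 rose and 4 fell, with a median of 0.09: Ptrf (cavin-1) rose by 0.64, the motor protein Myo1c by 0.46 and Flot1 (flotillin 1) by 0.44.

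Regulators of Slc2a4 transcription rose in G609G against WT for 10 of 17, with 3 lower and a median of 0.32 (7 and 9 as deposited). Myod1, among the 10, was above the filter only in G609G arrays. Klf15 rose by 2.12, Ppargc1a, the coactivator PGC-1α, by 1.57 and Cebpb by 1.54. Ppargc1a went the other way in LCS fat, at 6.69 ± 0.21 in LCS arrays and 7.53 ± 0.04 in WT arrays (-0.85, adjusted p = 1.5e-05), and Nr1h3 (LXRα) rose by 0.68 there. For glucose phosphorylation and glycogen, 7 of 12 genes rose and 2 fell in G609G against WT (6 and 5 as deposited), with a median of 0.62. Pygm, muscle glycogen phosphorylase, was at 12.73 in G609G arrays, 6.63 in LCS arrays and 6.68 in WT arrays. Ppp1r3a, a muscle subunit that targets a phosphatase to glycogen, was at 9.07, 3.50 and 3.52 in the same order. It was above the filter only in G609G arrays and entered the test through them, and without it 6 of 11 rose. In LCS fat 3 rose and 3 fell, Hk1 (hexokinase 1) falling by 0.60 and Gys2, the liver-type glycogen synthase, by 0.49. Insulin-responsive lipogenic genes fell for 10 of 14 in G609G against WT and rose for 4 (11 and 3 as deposited), with a median of -0.75. Dgat2, the last step of triglyceride synthesis, fell by 2.39 (8.77 in G609G arrays, 11.65 in LCS arrays and 11.16 in WT arrays) and Thrsp by 1.62, while Lpin1 rose by 1.63. In LCS fat 3 rose and 2 fell, with Pnpla3 higher by 1.14, Dgat2 higher by 0.49 and Thrsp lower by 0.79.

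**Figure D5:**
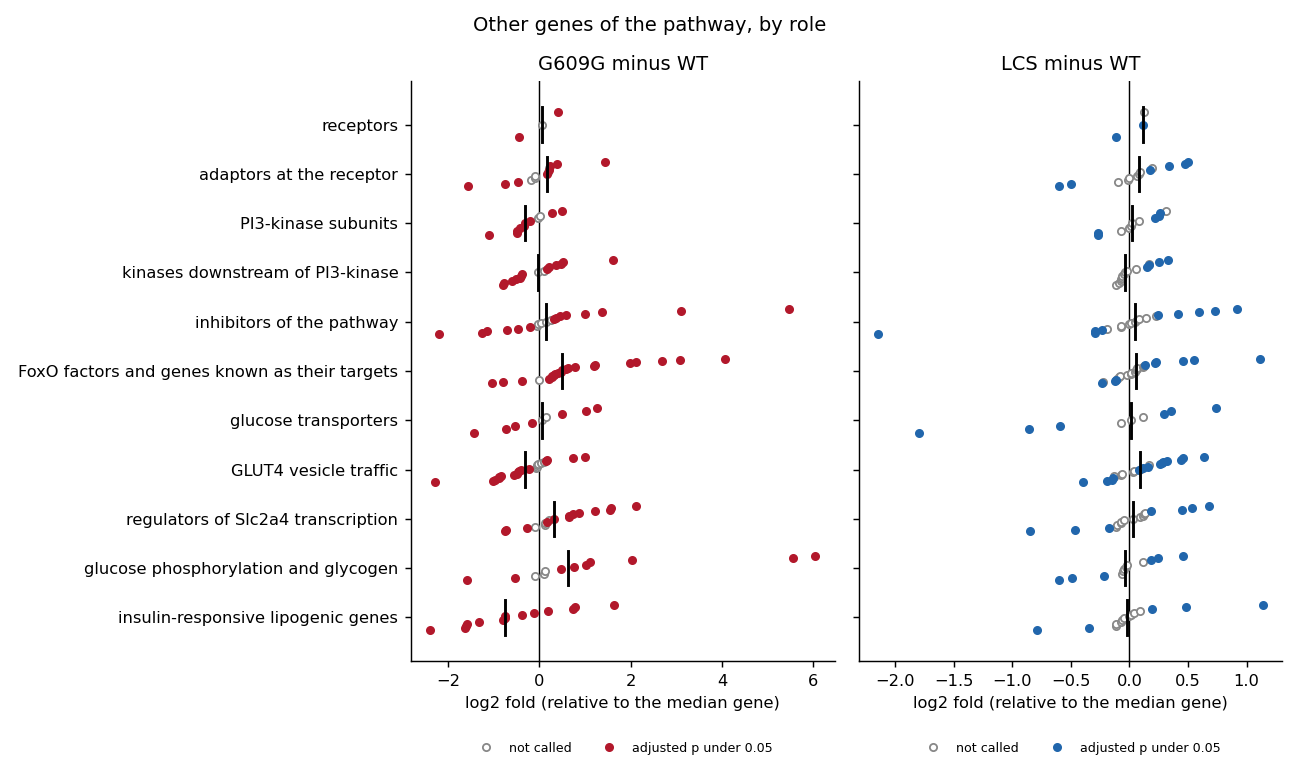
Log2 fold, relative to the median gene, of each tested pathway gene by list in G609G against WT and LCS against WT, with filled points for adjusted p under 0.05 and a bar at the list median. The horizontal scales of the panels differ. FoxO factors and targets lie mostly to the right in G609G fat on this scale (9 higher and 8 lower as deposited) and lipogenic genes mostly to the left, and the far right point at 6.05 is Pygm. Mstn and Ppp1r3a, the next to the right, were above the filter on dim genes only in G609G arrays, so their folds rest on LCS and WT values under it.

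The genes whose levels followed a member most closely over the 9 arrays were taken by Pearson correlation, as a description, since the arrays share the difference between groups. For Insr they were Slc25a22 (r = 0.999), Crtc2 (0.998) and N4bp2l2 (0.997). For Irs1 the values were lower, with Xrn1 at 0.987, Xpo7 at 0.982 and Mphosph6 at 0.979. Slc2a1 was followed by Hspb6, Brpf1 and Myoz2, each at 0.998. In G609G against WT these differed by 1.58, 0.87 and 3.45, in that order. Slc2a4 was followed by Aacs (0.998), Fgfr1 (0.997) and Il17ra (0.997). Many genes share these patterns, since most genes changed between G609G and the other groups.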

How the data were processed

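Total RNA from perigonadal white adipose tissue was labelled with biotin for exon arrays (labels' protocols). For each of the 9 arrays, log2 values of 229581 probe sets were deposited by the authors; the summary, background correction and normalization are not given in the sources used here, and mm9 is named in the submitters' processing notes. The series design speaks of 10 samples; 9 arrays were analysed here. Array depth has no counterpart in reads; the number of arrays limits the precision. Replicates of a group correlated at 0.972 to 0.990, and at most 1.89% of values were identical between 2 arrays.

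Median polish, limited to 10 rounds, turned the probe sets with 1 gene symbol (208397) into gene values. A gene was tested if it had 3 or more probe sets and its mean exceeded the 25th percentile (5.09), which left 11342 of 16299. Each array was shifted by the median deviation of its tested genes. limma 3.58.1 (lmFit, eBayes with a trend, R 4.3.3) was fitted to all 9 arrays, with Benjamini-Hochberg adjustment over all tested genes and a threshold of 0.05. diffSplice was run on probe sets above the 25th percentile (5.01), 158136 in 13882 genes. The scripts were tested on simulated data. Figures were drawn with matplotlib 3.10.9 (Python 3.11.15).

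Deviations of same-numbered G609G and WT arrays correlated at 0.168, 0.145 and 0.337 over genes. Arrays of unlike number were not correlated, so these values cannot decide whether the titles' replicate numbers mark pairs. No pairing is stated in the design. The members and lists were chosen with earlier results of these data known. All members were named, with up to 3 genes a list and comparison by size of fold among calls with groups that did not overlap, up to 3 probe sets a comparison by lowest p (1 per gene), and the 3 genes most correlated with Insr, Irs1, Slc2a1 and Slc2a4. Alternatives changed the scaling, summary, filters, variance model, test, arrays and replicate block. Each array was also left out in turn. Promoter windows came from RefSeq (GRCm38.p6), with 12 windows for 7 of the 9 members.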

Additional observations from a re-analysis of the deposited data

How the results depend on the processing

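Most member results under alternatives kept their direction and side of the threshold: 529 were the same, 37 lost the call, 15 gained it and 19 changed sign. On the deposited scale the G609G minus WT values were -0.06 for Insr, -0.27 for Irs1 and -0.31 for Akt1, and the G609G minus LCS values -0.26 for Pik3r1 and -0.49 for Akt1. Vwf, an endothelial marker outside the members and these counts, was at -0.12 in deposited G609G minus WT. There G609G against WT had 3 members higher and 2 lower and 937 genes higher and 8083 lower, LCS against WT had 1 member lower, and G609G against LCS had 3 members higher and 3 lower and 1064 genes higher and 7998 lower. With white adipocyte markers set equal, an alternative chosen after seeing the data, G609G against WT had 5995 genes higher and 2462 lower, LCS against WT 1588 higher, and G609G against LCS 6671 higher and 2248 lower (in place of 3858 and 4160, of 2526, and of 4186 and 4182). The methods' t-test at a fold of 1.5 gave, without and with Benjamini-Hochberg adjustment, 2914 and 2869 genes in G609G against WT (1098 and 1086 higher, 1816 and 1783 lower), 932 and 914 in LCS against WT (360 and 358 higher, 572 and 556 lower) and 3318 and 3296 in G609G against LCS (1372 and 1362 higher, 1946 and 1934 lower). It called 4 and 4 members in G609G against WT (3 and 3 higher), 0 and 0 in LCS against WT (0 higher, 0 lower) and 4 and 4 in G609G against LCS (0 lower). The main counts were 8018, 4533 and 8368 genes; this test also requires a fold of 1.5. In LCS against WT, 1 member was lower with no filter on dim genes, with eBayes without a trend and without divergent member probe sets (chosen after seeing the data); leaving out an array gave 1 to 2 there. The single probe set called in LCS against WT with no filter on dim probe sets was 5614602 of Pik3r1, chosen after its value was seen. G609G against LCS had 2 members lower with no filter on dim genes and 9 divergent probe sets by the splicing index, in place of 15. Small values changed sign. For Slc2a1 in LCS minus WT they were -0.012 by the median of centred probe sets, -0.00125 for genes above the 50th percentile, -0.0082 with only the compared arrays, -0.018 by cyclic loess and -0.062 with adipocyte markers equal, the loess and marker settings chosen after seeing the data. They ran over -0.013 to 0.051 as each array was left out, lowest without WT replicate 2. For Akt1 in G609G minus LCS they were -0.035 by quantile normalization, -0.20 with no filter and -0.0032 with only the compared arrays, and ran over -0.031 to 0.042 as each array was left out, below 0 without G609G replicate 1 or LCS replicate 3. For Akt1 in G609G minus WT the value was -0.021 with no filter. With no filter the shift of each array was taken over all genes, which moves the zero point of the folds. Pik3r1 in G609G minus LCS then stood at 0.032 in place of 0.24. The cause of the other moves was not tested. Quantile normalization kept the other member calls, and Irs1 passed in G609G minus WT (0.23, adjusted p = 0.0481).

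The replicate number as a block was fitted on only the compared arrays. With it Irs1 passed in G609G minus WT (0.20, adjusted p = 0.00767), which it did not on the same arrays with no block (adjusted p = 0.123). Akt2 in LCS minus WT passed with the block (-0.09, adjusted p = 0.0254) and also on the same arrays with no block (adjusted p = 0.0262), with array weights (0.0253), by cyclic loess (0.042) and with adipocyte markers equal (0.0195), so the block did not bring that call. With the block Slc2a1 in LCS minus WT was -0.0082 and Akt1 in G609G minus LCS was -0.0032. Deviations of same-numbered LCS and WT arrays correlated at -0.113, 0.204 and 0.0854, and those of G609G and LCS arrays at -0.121, 0.121 and 0.107. Without arrays of unlike number beside them, these values do not decide a pairing either. Signal near background limits the dim probe sets, and 3 arrays a group limit exact tests to 0.1.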
